A study of Mus musculus with 2 samples.

Results

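The miR-34 and miR-449 family was followed in small RNA libraries of J1 mouse embryonic stem cells. Its members were the 6 hairpin genes Mir34a, Mir34b, Mir34c, Mir449a, Mir449b and Mir449c, listed by symbol, out of 1174 miRNA hairpin genes with a Mir symbol in GENCODE M21. J1 is an embryonic stem cell line of the 129S4/SvJae mouse strain, here 1 line with no genetic change given in the labels. The cells were exposed for 6 h to 1 µM SC1, also known as pluripotin, a small molecule that promotes self-renewal, or to the same volume of its solvent DMSO. Both cultures were kept on gelatin in medium with serum replacement and 1000 U/mL LIF. Each condition had 1 library, so no value below has a replicate error.

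The deposited lists give distinct sequence tags with their read counts. The SC1 list held 1275599 reads of 3 to 17 nt and the DMSO list 18870345 reads of 18 to 44 nt. As no tag length was shared, no member could be compared between SC1 and DMSO, and the lists are described one by one. Levels are those of the DMSO list, from tags of 18 to 26 nt that matched a hairpin exactly. They are given as reads and as RPM, the reads in each 1000000 of the 2177993 reads that matched any hairpin. Each interval is an exact 95% binomial one (Clopper-Pearson). It covers counting error only, because without molecular identifiers the reads of 1 molecule cannot be told from those of several. The miR-290-295 cluster, the usual mark of mouse embryonic stem cells, had reads on 7 of its 9 hairpin genes in the SC1 list and on 8 of 9 in the DMSO list. Of all 1174 hairpin genes, 304 had reads in the SC1 list and 741 in the DMSO list. Within its own list, the cluster held 50.5% of the SC1 hairpin reads of 15 to 17 nt and 28.9% of the DMSO hairpin reads of 18 to 26 nt.

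A miRNA is cut from a hairpin precursor by Drosha and Dicer, which leaves a 5p and a 3p arm. The arm that is loaded into an Argonaute protein pairs with target mRNAs mainly through its seed, bases 2 to 8. The miR-34 genes are known as direct targets of the tumour suppressor p53, and their products repress cell cycle genes. In mouse embryonic stem cells Mir34a is known to restrict cell fate potential. Mir34b and Mir34c share a primary transcript, and together with the Mir449 genes they are best known from multiciliated epithelia and testis, where they act in the formation of motile cilia.

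Mir34a (ENSMUSG00000065493.1) lies on chromosome 4 of GRCm38 at 150068454 to 150068555, where 17 of its 102 bases overlap an exon of the unclassified transcript Gm37795. Mir34b (ENSMUSG00000065492.1) lies on the minus strand of chromosome 9 at 51103562 to 51103645, and Mir34c (ENSMUSG00000065587.1) at 51103034 to 51103110, with 451 bases between them. Both are within an intron of Btg4, which is annotated on the opposite strand. Mir449c (ENSMUSG00000076146.1), Mir449b (ENSMUSG00000078027.1) and Mir449a (ENSMUSG00000065575.1) follow each other in an intron of Cdc20b on chromosome 13, on the strand of that gene, at 113035983 to 113036091, 113037419 to 113037498 and 113037534 to 113037624.

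The sequences below show what the members share and where they differ. They are the most abundant DMSO tags of the 5p arms, as deposited, with the seed in capitals.
miR-34a-5p: tGGCAGTGtcttagctggttgt
miR-34b-5p: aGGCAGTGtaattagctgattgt
miR-34c-5p: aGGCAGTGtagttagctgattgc
miR-449a-5p: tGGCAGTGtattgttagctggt
miR-449c-5p: aGGCAGTGcattgctagctggctgt

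All 5 of these tags carried the seed GGCAGUG. In the RefSeq table, 4 mature miRNAs had this seed, and all 4 were members (miR-34a-5p, miR-34b-5p, miR-449a-5p and miR-449c-5p). The members miR-34c-5p and Mir449b were not matched in that table. The miR-34b-5p and miR-34c-5p tags differed by 2 substitutions over 23 bases, A11G and T23C, counted from 1 at the 5′ end with the base of miR-34b-5p first. Set base by base without gaps, the 22 nt forms of miR-34a-5p and miR-449a-5p differed at 7 positions, all behind the seed. Both hold the stretch TTAGCTGGT, which lies farther from the 5′ end in miR-449a-5p, so these positions are not separate substitutions.

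The 3p arms did not share 1 seed. The RefSeq mature forms of these arms are shown with the seed in capitals. They set the pair of Mir34b and Mir34c, alike in the seed but not in all later bases, beside the others.
mmu-miR-34a-3p: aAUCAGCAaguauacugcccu
mmu-miR-34b-3p: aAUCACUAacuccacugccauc
mmu-miR-34c-3p: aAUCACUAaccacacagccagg
mmu-miR-449a-3p: cAGCUAACaugcgacugcucuc
The seed AUCACUA was common to miR-34b-3p and miR-34c-3p, and in the RefSeq table no other mature miRNA had it.

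The family held 9817 DMSO reads, 0.451% of all hairpin reads (interval 0.442 to 0.460), and 1 of its arms supplied most of them. miR-34c-5p alone had 8904 reads, 90.7% of the family. At 4088 RPM (interval 4004 to 4174) it ranked 49 among the 1151 arms with reads. The next arm of the family, miR-34a-5p, had 422 reads, or 194 RPM (interval 176 to 213), and ranked 201. The median of all arms with reads was 7.35 RPM.

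**Figure D1:**
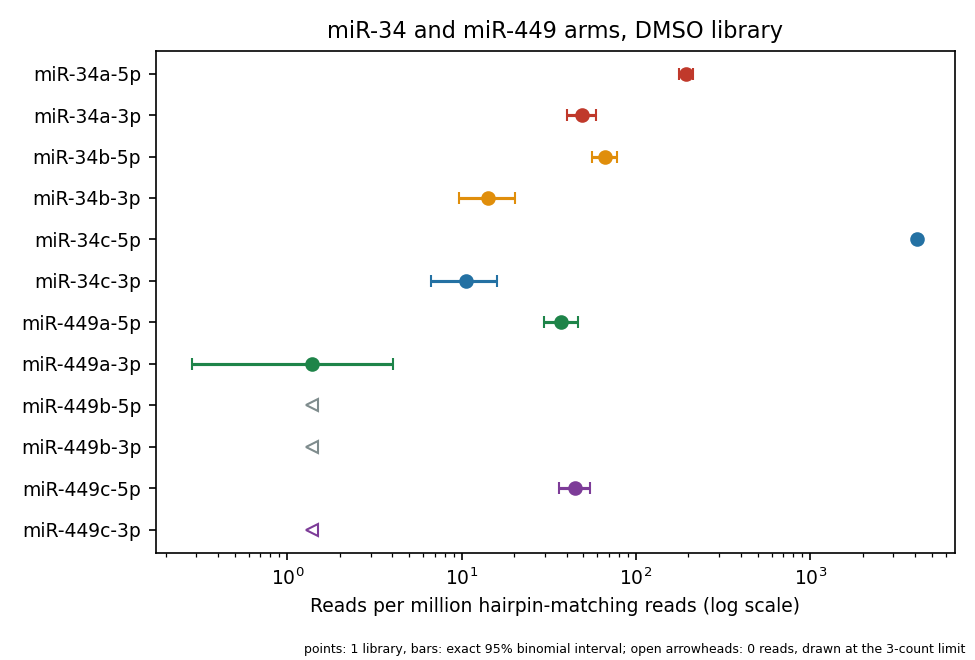
Level of each arm in the DMSO library, in RPM on a log axis. Points are single-library values, bars exact 95% binomial intervals, and open arrowheads stand for 0 reads, drawn at the limit of 3 counts (1.38 RPM). miR-34c-5p at 4088 RPM has 21.1 times the reads of miR-34a-5p, the next arm.

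Below these the arms formed steps, some of which lay within counting error. miR-34b-5p had 145 reads (66.6 RPM, interval 56.2 to 78.3) and miR-34a-3p 107 reads (49.1 RPM, interval 40.3 to 59.4), with intervals that overlapped. miR-449c-5p had 97 reads (44.5 RPM, interval 36.1 to 54.3) and miR-449a-5p 81 reads (37.2 RPM, interval 29.5 to 46.2), and their order was within counting error too. With tags of 20 to 24 nt miR-449c-5p was at 20.5 RPM and miR-449a-5p at 24.9 RPM, and with the most abundant tag of each arm they were at 24.8 and 23.3 RPM. miR-34b-3p with 31 reads (14.2 RPM, interval 9.67 to 20.2) and miR-34c-3p with 23 reads (10.6 RPM, interval 6.69 to 15.8) came next, at 8.77 and 6.92 RPM with tags of 10 or more reads. miR-449a-3p had 3 reads. miR-449c-3p and both arms of Mir449b had 0 reads. A limit of 3 counts is 1.38 RPM, and the exact interval reaches up to 1.69 RPM.

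The 3 loci were far from balanced. Mir34a had 533 reads, 5.43% of the family (interval 4.99 to 5.90), the Mir34b and Mir34c locus 9103 reads, 92.7% (interval 92.2 to 93.2), and the Mir449 locus 181 reads, 1.84% (interval 1.59 to 2.13). The ratio of Mir34a to the Mir34b and Mir34c locus was 0.0586 (interval 0.0536 to 0.0639). Against the Mir449 locus Mir34a stood 2.94-fold higher (interval 2.48 to 3.51). Counting 1 tag an arm, its most abundant, the share of Mir34a was 3.35% and that of the Mir449 locus 0.843%. With tags of 20 to 24 nt the Mir449 share was 0.991%, as many miR-449a-5p and miR-449c-5p tags lay outside that window. By distinct tags, of which the family had 68, the shares were 30.9% for Mir34a, 47.1% for the Mir34b and Mir34c locus and 22.1% for the Mir449 locus.

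Mir34c and Mir34b were unequal although they lie side by side. Mir34c had 8927 reads and Mir34b 176, a ratio of 50.7 (interval 43.7 to 59.2). Mir34a had 3.03 times the reads of Mir34b (interval 2.55 to 3.61). Mir34a therefore ranked above one gene of the pair and below the other. Among the 741 hairpin genes with reads, Mir34c ranked 46, Mir34a 164 and Mir34b 229.

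The inequality of the pair was seen in the 5p arm. miR-34c-5p had 61.4 times the reads of miR-34b-5p (interval 52.1 to 72.9). Of the 3p arms, miR-34c-3p had 23 reads and miR-34b-3p 31, a ratio of 0.742 (interval 0.413 to 1.31), so that neither was higher beyond counting error. miR-34a-3p had 4.65 times the reads of miR-34c-3p (interval 2.94 to 7.65), although miR-34c-5p led miR-34a-5p. The hairpins below show in capitals where the leading tag of either arm lies in the pair, from RefSeq (GRCm38.p6).
Mir34b: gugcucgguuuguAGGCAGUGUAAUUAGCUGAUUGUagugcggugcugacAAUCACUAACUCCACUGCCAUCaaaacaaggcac
Mir34c: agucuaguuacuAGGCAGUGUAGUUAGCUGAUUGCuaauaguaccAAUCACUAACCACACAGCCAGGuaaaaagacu

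Tags of miR-34b-5p could be told from those of miR-34c-5p. From its main start, 111 of the miR-34b-5p reads were long enough to hold both differences, and 14 shorter reads held only the one at base 11. In miR-34c-5p tags with 1 substitution in the first 18 bases, no single substitution had more than 10 reads, beside 8898 exact reads from the main start. At base 11 itself G11T had 4 reads. A change of G to A there would be read as miR-34b-5p in a tag under 23 nt, and its part in the 14 shorter reads was not tested.

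**Figure D2:**
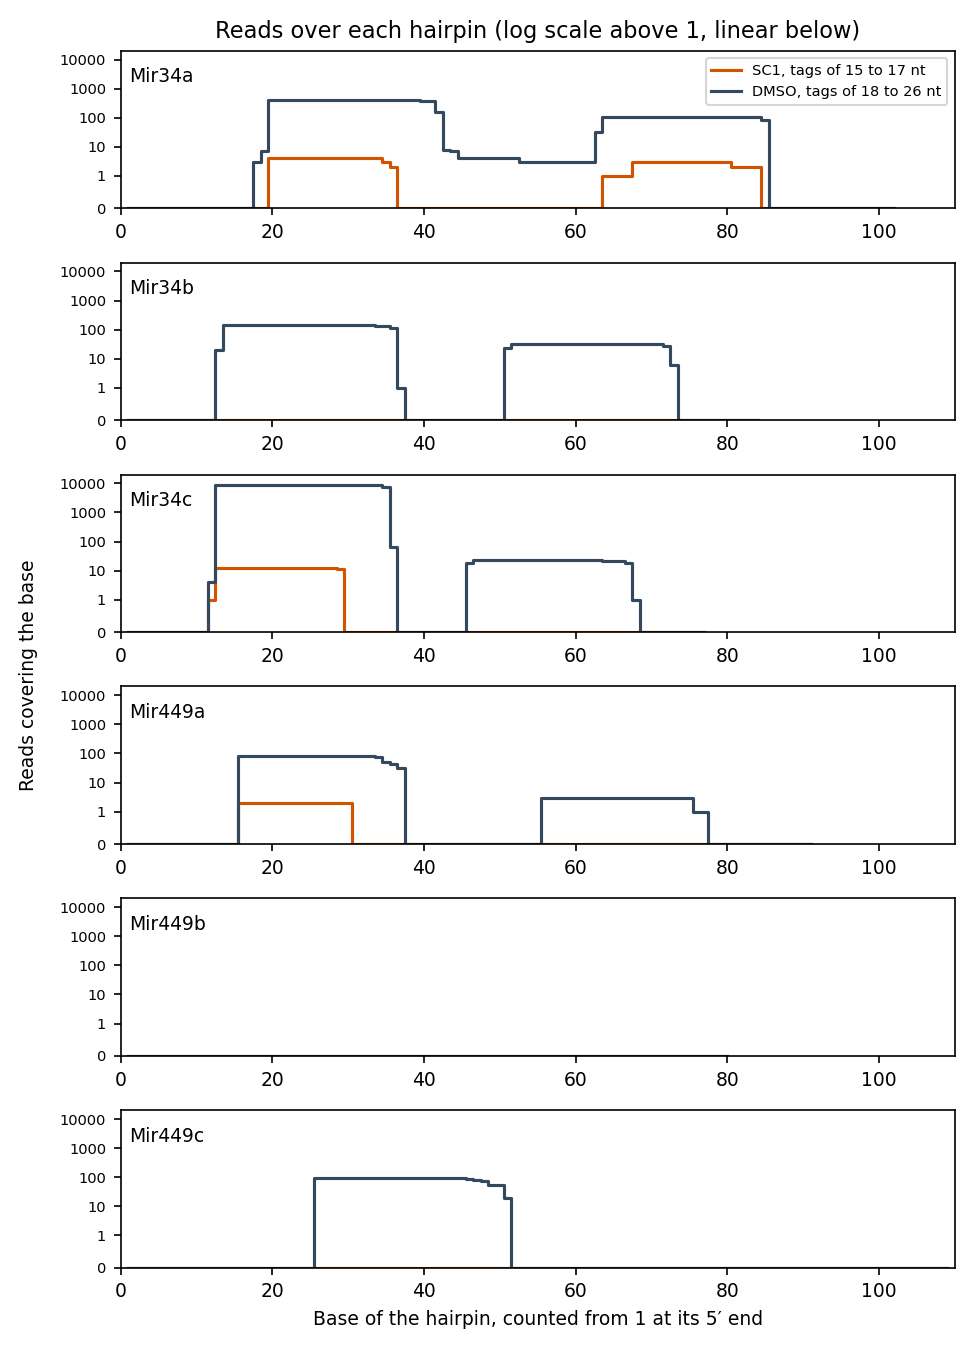
Reads over each base of the 6 hairpins, counted from 1 at the hairpin's 5′ end, on an axis that is logarithmic above 1 and linear below. Orange lines are SC1 tags of 15 to 17 nt and dark lines DMSO tags of 18 to 26 nt. The 5p arm is the higher one in the 5 hairpins with DMSO reads, and Mir449b is empty.

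In the 5 hairpins with DMSO reads the 5p arm held most of the arm reads, but the margin varied. In Mir34a it held 422 of 529 reads, 79.8% (interval 76.1 to 83.1), and in Mir34b 145 of 176, 82.4% (interval 75.9 to 87.7). In Mir449a it held 81 of 84, 96.4% (interval 89.9 to 99.3). In Mir34c it held 8904 of 8927, 99.7% (interval 99.6 to 99.8), a ratio of 387 5p reads to 1 3p read. In Mir449c all 97 reads were 5p (interval 96.3 to 100), at least 32.3-fold more than a 3p count at the limit of 3 allows. Mir34a also had 4 reads over its loop, with no more than 50% of the tag in either RefSeq arm.

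Over the 333 hairpins with 50 or more reads the median 5p share was 39.2%, with quartiles of 3.25% and 97.1%. Hairpin copies with the same tags, such as those of Mir467a (27.6% each) and Mir669a (5.25% each), entered this set separately with split reads. The set of arms with 50 or more reads used below was formed in the same way. A 5p share of 99% or more was found for 64 of them (19.2%), among them Mir34c and Mir449c. Mir34a, Mir34b and Mir449a lay between the quartiles. By distinct tags the 5p share of Mir34c was 62.5% and that of Mir34a 72.2%.

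**Figure D3:**
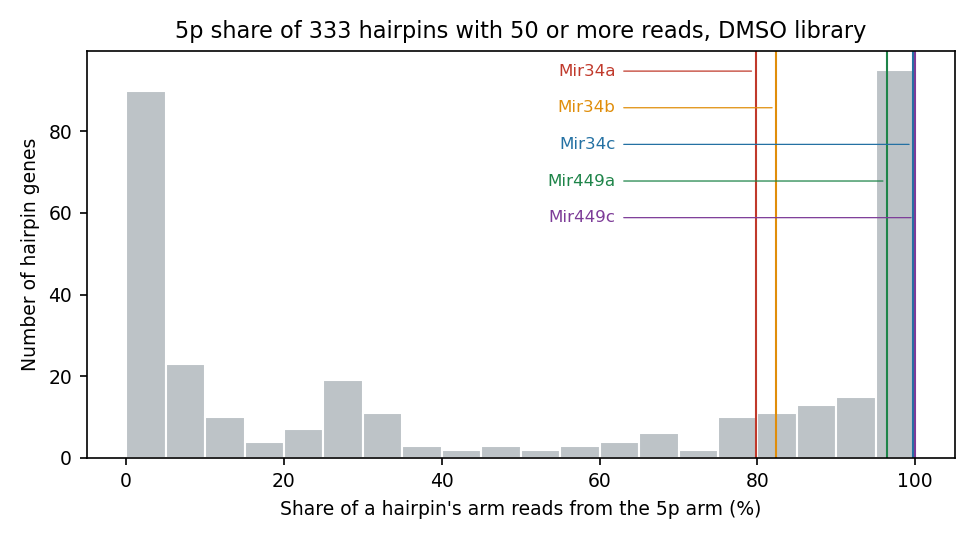
Number of hairpin genes (vertical axis) by the share of their arm reads that came from the 5p arm (horizontal axis, %), for 333 hairpins with 50 or more DMSO reads. Coloured lines mark the members, with Mir34a at 79.8%, Mir34b at 82.4%, Mir449a at 96.4%, Mir34c at 99.7% and Mir449c at 100%.

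The start of the tags decides the seed, and the arms differed in how uniform it was. miR-34c-5p began at 1 base in 8898 of 8904 reads, 99.9% (interval 99.85 to 99.98). miR-449a-5p and miR-449c-5p had 1 start in all 81 and all 97 reads. miR-34a-5p began at the RefSeq start in 414 of 422 reads, 98.1%. Over 417 arms with 50 or more reads the median share of the main start was 97.3%, with quartiles of 86.0% and 99.5%.

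miR-34b-5p and the 3p arms were less uniform. In 20 of 145 reads (13.8%, interval 8.63 to 20.5) miR-34b-5p began 1 base upstream, where the seed reads AGGCAGU. Its main start held 86.2% of reads, and 91.7% with tags of 10 or more reads. For miR-34c-5p the same upstream start had 4 of 8904 reads (0.0449%, interval 0.0122 to 0.115). The miR-34a-3p reads began 1 base upstream in 31 of 107 cases (29.0%, interval 20.6 to 38.5), with the seed AAUCAGC in place of AUCAGCA. That left 71.0% at the RefSeq start, a lower share of the main start than in all but 56 of the 417 arms. In miR-34b-3p 8 of 31 reads, and in miR-34c-3p 4 of 23 reads, began 1 base downstream, with the seed UCACUAA.

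**Figure D4:**
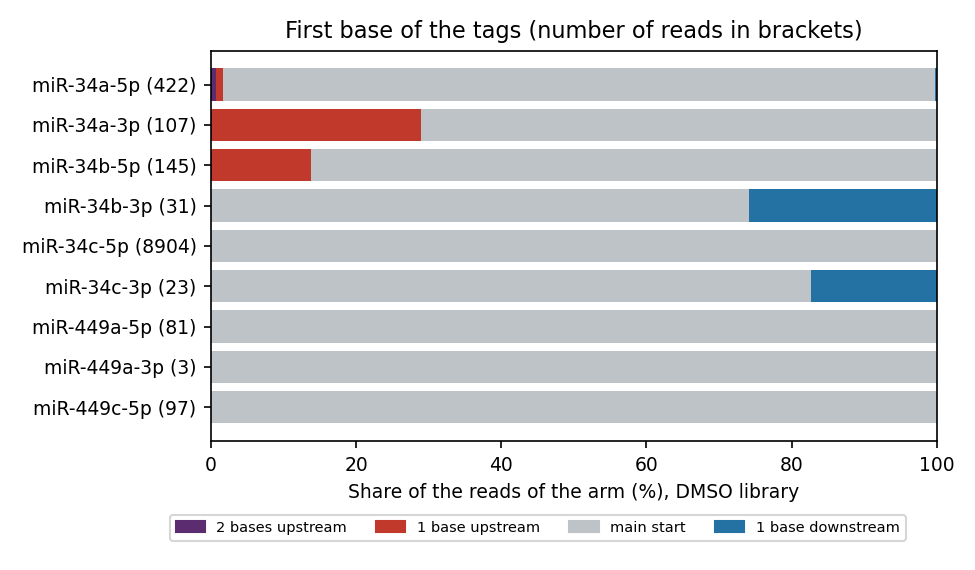
Share of the DMSO reads of each arm (%) by the first base of the tag relative to the main start, with the number of reads in brackets. Red marks 1 base upstream (29.0% in miR-34a-3p, 13.8% in miR-34b-5p) and blue 1 base downstream, while miR-34c-5p, miR-449a-5p and miR-449c-5p show almost 1 start.

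The main and the shifted starts are shown by the leading deposited tag of each, with bases 2 to 8 of that tag in capitals.
miR-34a-3p, main start: aATCAGCAagtatactgcccta
miR-34a-3p, upstream start: cAATCAGCaagtatactgcccta
miR-34b-5p, main start: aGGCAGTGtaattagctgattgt
miR-34b-5p, upstream start: tAGGCAGTgtaattagctgattg
The upstream miR-34a-3p tag had 26 reads, against 60 reads for the tag of the main start. The upstream miR-34b-5p tag had 10 reads, against 110 reads for the tag of the main start.

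Tag lengths differed between the members. Of the miR-34c-5p reads, 85.2% were 23 nt long and 12.6% were 22 nt. miR-34b-5p was likewise mainly 23 nt long, in 82.8% of reads. miR-34a-5p had 2 main lengths, 22 nt with 50.7% and 23 nt with 36.7%. Their leading tags differ by 1 T at the 3′ end, which matches the hairpin. A T added to the 22 nt form would give the same tag, and its part was not tested. Over all hairpin reads 22 nt was most frequent (46.1%), ahead of 23 nt (22.5%). The most abundant miR-34a-3p tag, of 22 nt and 60 reads, ended 1 base behind the 21 nt RefSeq form, which itself had 15 reads.

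The Mir449 tags were the ones farthest from the usual lengths. miR-449c-5p was most frequent at 25 nt (34 of 97 reads, 35.1%, interval 25.6 to 45.4), with 19 reads at 26 nt, while the RefSeq form of 21 nt had 7 reads. In all, 57.7% of its reads were 24 to 26 nt long, against 9.55% of all hairpin reads. A most frequent length of 25 or 26 nt was seen in 7 of 417 arms (1.68%). The window ended at 26 nt, and from 27 to 44 nt the family had 3 reads.

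miR-449a-5p went the other way. It had 32 of 81 reads at its RefSeq length of 22 nt (39.5%) but 27 reads at 19 nt (33.3%, interval 23.2 to 44.7), a length that held 3.23% of all hairpin reads. Its tags of 18 to 20 nt made up 46.9%, against 9.50% of all hairpin reads. Both miR-449 arms had 1 start, so the variation lay at the 3′ end. The leading tags of these arms show the 3′ ends, with the seed in capitals.
miR-449a-5p, 22 nt: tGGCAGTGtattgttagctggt
miR-449a-5p, 19 nt: tGGCAGTGtattgttagct
miR-449c-5p, 25 nt: aGGCAGTGcattgctagctggctgt
miR-449c-5p, 26 nt: aGGCAGTGcattgctagctggctgtt
miR-449c-5p, RefSeq form: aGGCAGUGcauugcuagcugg

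**Figure D5:**
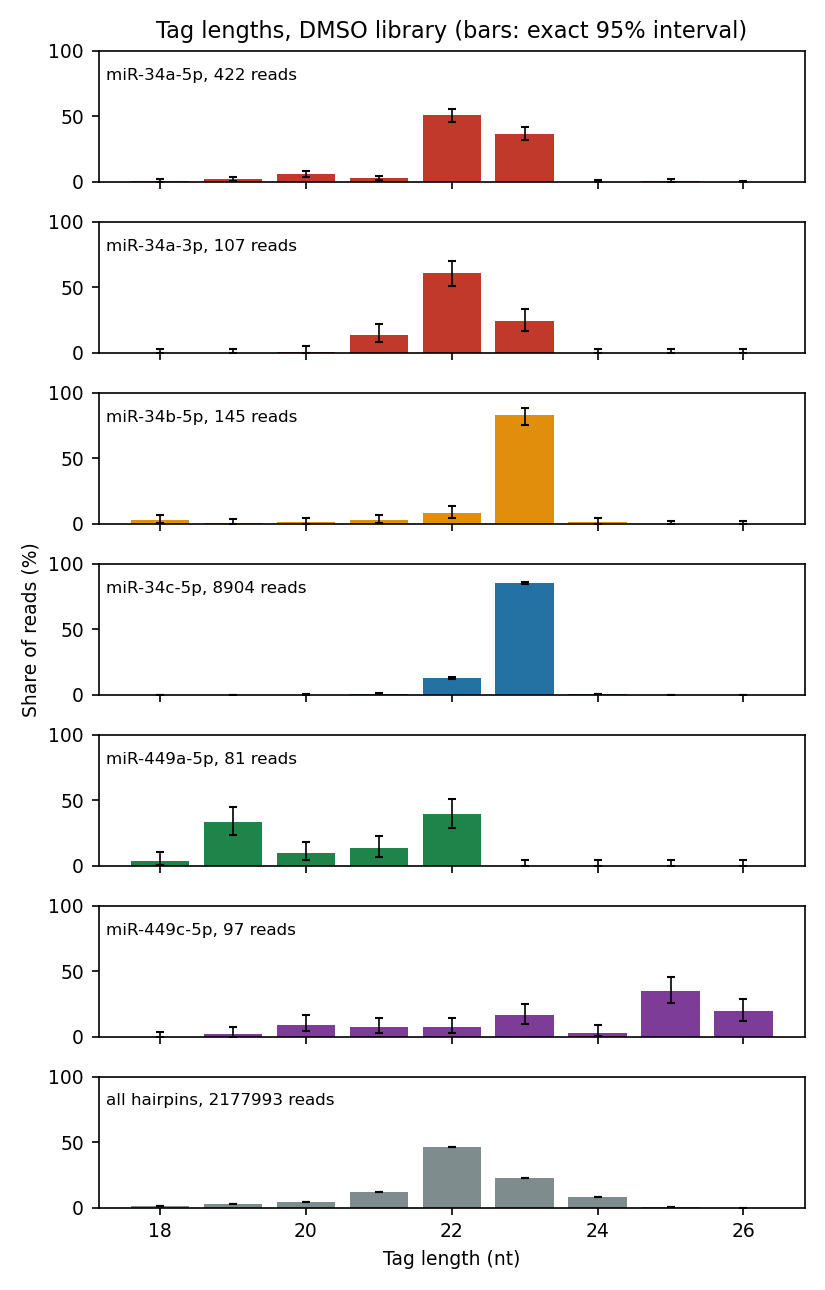
Share of DMSO reads (%) by tag length in nt for the 6 arms with 50 or more reads and for all hairpin reads, with exact 95% binomial intervals. miR-34b-5p and miR-34c-5p peak at 23 nt, miR-449a-5p has peaks at 19 and 22 nt, and miR-449c-5p is highest at 25 nt.

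Additional A or T bases at the 3′ end that do not match the hairpin were more frequent on miR-34a-5p than on miR-34c-5p. After removal of up to 3 such bases, 65 of 487 miR-34a-5p reads were tailed (13.3%, interval 10.5 to 16.7), against 334 of 9238 miR-34c-5p reads (3.62%, interval 3.24 to 4.02). The median over 417 arms was 6.09%, with quartiles of 3.13% and 14.6%. miR-34b-5p had 1 tailed read of 146, but an A added to its 23 nt form matches the hairpin and was counted as exact. The tail shares leave out added bases that match the hairpin, and which base is left out differs between arms. On miR-34c-5p a single untemplated A (211 reads) was seen more often than a single untemplated T (107 reads), and on miR-34a-5p the counts were 28 and 17. A T added to the 23 nt miR-34c-5p form or the 22 nt miR-34a-5p form matches the hairpin and was counted as exact. These exact tags had 67 reads (miR-34c-5p, 24 nt) and 154 reads (miR-34a-5p, 23 nt). How many of them ended in an added T cannot be told, so A and T were not counted on equal terms. A T behind base 22 of miR-34c-5p matches the last base of miR-34b-5p, but such tags keep the G at base 11 and were counted as miR-34c-5p.

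The SC1 list held 21 short reads of the family, 0.0394% of the 53343 reads of 15 to 17 nt that matched a hairpin (interval 0.0244 to 0.0602). Mir34c had 12 of them (57.1%, interval 34.02 to 78.2), Mir34a 7 (33.3%, interval 14.6 to 57.0) and Mir449a 2. Mir34b, Mir449b and Mir449c had 0 of the 21. A limit of 3 counts is a share of 14.3%, and the exact interval reaches up to 16.1%. Of the Mir34c reads, 11 were 1 tag of 17 nt at the main start of miR-34c-5p. The Mir34a reads were spread over 5 tags, with 4 reads on the 5p arm and 3 on the 3p arm. A 3p tag with 2 reads ended at the RefSeq end of miR-34a-3p and began 4 bases inside it. With 17 nt tags alone the family share was 0.122%. The DMSO list held no tags of these lengths, so these counts have no DMSO value to be set against.

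Background matches were rare. Reversed tags matched a member hairpin in 0 SC1 and 0 DMSO reads, and the opposite strand of a member was matched by 0 SC1 reads and 1 DMSO read. None of the 8 SC1 tags and none of the 68 DMSO tags of the family matched another hairpin or another GENCODE M21 transcript exactly.

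Other miRNAs known as p53-linked were read in the same DMSO list. Of 11 symbols listed, 9 were in the reference. Mir605 was not matched, and Mir145 is listed there as Mir145a. All 9 had reads, 8 of them 10 or more, while 471 of all 1174 hairpin genes (40.1%) had 10 or more. The median level of the 9 was 252 RPM. It was 1.38 RPM over all 1174 hairpin genes and 62.7 RPM over the 6 members, in both cases with genes of 0 reads included. Over the 741 hairpin genes with reads the median was 14.7 RPM. The activity of p53 was not measured in these libraries.

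Among the listed genes, Mir107 was at 8222 RPM and Mir192 at 5036 RPM, both above Mir34c at 4099 RPM. Mir16-1 was at 1444 RPM, Mir143 at 946 RPM and Mir15a at 252 RPM. Mir145a at 62.4 RPM, Mir194-2 at 42.0 RPM and Mir215 at 13.8 RPM lay below Mir34a at 245 RPM. The values of Mir16-1 (3145.5 reads) and Mir194-2 (91.5 reads) include tags shared with other hairpins and split equally. Their levels therefore depend on that rule, while no tag of Mir34a or Mir34c was shared. Mir107 had a split count among the short SC1 reads (145.667), so some of its tags match other hairpins too. How far its DMSO level of 8222 RPM rests on shared tags was not tested. Mir34a and Mir15a did not differ beyond counting error (intervals 224 to 266 and 231 to 274).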

How the data were processed

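The authors deposited, for each library, raw read counts per distinct tag and the tag length in nt; the counts are whole numbers and not normalized. The last DMSO line, which holds only a total, was dropped. The submitters' processing notes name mm9; trimming, length filter and aligner: not given in the sources used here. Coordinates are GRCm38, from exact sense matches to GENCODE M21 hairpins; RefSeq (GRCm38.p6) sequences were matched for 5 of the 6 hairpins and for 9 mature forms. A tag went to the RefSeq arm that held over 50% of it, or to neither arm; where RefSeq did not give both arms, it went to its side of the hairpin midpoint. Tags of several hairpins were split equally. With 1 library per condition no test was made. All members and arms, p53-linked miRNAs of a list with 10 or more reads and miRNAs with a member's seed were named. Members and lists were chosen with earlier results of these data known. Alternatives were tag minima of 2 and 10 reads, unshared or leading tags alone, removal of up to 3 trailing A or T, other lengths, other scales, a stricter arm window and distinct tags. Only the placing of tags on hairpins was tested, with simulated error-free tags cut from the same hairpins. Arm assignment and tail removal were not part of that test. Software was matplotlib 3.10.9, scipy 1.17.1, numpy 2.4.6 and Python 3.11.15.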

Additional observations from a re-analysis of the deposited data

Results flagged for a closer look

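Short tags of the SC1 list gave 21 reads on hairpins of the family, 0.0394% of the 53343 short hairpin reads, in a length class that the levels above do not use. The DMSO list has no tags of these lengths, so there is no control value. Whether they are pieces of mature miRNAs was not tested.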

How the results depend on the processing

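No paired analysis was possible because SC1 and DMSO had 1 library each, and likewise no replicate could be left out. Where a value moved beyond its counting interval, the cause was not tested unless named. The family share (0.451%) and the miR-34c-5p level (4088 RPM) were 0.534% and 4843 RPM without shared tags, where only the denominator changed. They were 0.587% and 5520 RPM with the most abundant tags, 0.425% and 3836 RPM after A or T removal, 0.473% and 4340 RPM at 20 to 24 nt, 0.0520% and 472 RPM per all reads of the list, 1.03% and 1519 (in 1000000 tags) by distinct tags, and 0.441% and 3997 RPM over all hairpins of the miRNA class, chosen after seeing the data. The Mir34a share (5.43%) was 3.35% with the most abundant tags, 30.9% by distinct tags and 5.90% with trailing A or T removed. The share of the Mir34b and Mir34c locus (92.7%) was 93.4% with tags of at least 10 reads, 95.8% with the most abundant tags, 93.7% at 20 to 24 nt and 47.1% by distinct tags. The Mir449 share (1.84%) was 1.44%, 0.843%, 0.991% and 22.1% under these 4. By distinct tags the 5p share was 72.2% in Mir34a and 62.5% in Mir34c. The SC1 family share (0.0394%) was 0.122% at 17 nt and 1.02% by distinct tags. Of 167 other values, 49 moved. Scaling to all reads moved 8 of them, and counting distinct tags moved 8 up and 12 down. Both of these change the unit. Under every setting that gave locus shares, the Mir34b and Mir34c locus held the largest share of the family. Depth limits the 3p arms of Mir34b, Mir34c and Mir449a (31, 23 and 3 reads) and the 21 SC1 reads.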
